A study of Mus musculus with 8 samples.

Results

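The genes described here are the receptors and co-receptors that receive Hedgehog ligands at the cell surface, together with the transducer Smoothened: Ptch1, Hhip, Boc, Cdon, Gas1 and Smo. They were taken by gene symbol from the authors' comparison table and joined by Ensembl identifier to the 8 columns of counts, which gave 6 of 49671 gene identifiers. All 6 passed the filter on low values, which left 20162 genes for testing.

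The samples were cells sorted from the lung stroma of 4 SmoM2 mice and 4 control mice, all adult, and poly(A) RNA was sequenced in bulk. SmoM2 mice were Gli2creERT2-tdt:R26RYFP/SmoM2 and controls were Gli2creERT2-tdt:R26RYFP, so both groups carry the Gli2-driven, tamoxifen-inducible Cre and the YFP reporter, and SmoM2 mice carry in addition a Cre-dependent, constitutively active form of Smoothened. Per the labels' protocols, tamoxifen was injected intraperitoneally at 200 mg/kg on each of 5 days to turn on Hedgehog signalling in the GLI2+ stroma of SmoM2 mice. Whether control mice were dosed is not given in the sources used here. Cells were gated on their own YFP fluorescence.

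In the Hedgehog pathway, PTCH1 keeps Smoothened inactive until a ligand binds it, after which Smoothened drives the GLI transcription factors. BOC, CDON and GAS1 bind ligand and help present it to PTCH1, whereas HHIP binds ligand without signalling. Ptch1 and Hhip are themselves induced by the pathway and restrain it, and in mouse embryos Boc, Cdon and Gas1 are lowered by it. In the adult lung the ligands come largely from the epithelium and are received by the stroma.

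The allele that separates the groups encodes Smoothened with 1 codon changed. By the genotype it is carried at R26, apart from the Smo gene itself. The stretch of exon 9 of the Smo gene with the matching, unchanged codon is shown because a count per gene cannot tell the endogenous transcript and a SmoM2 transcript apart. It lies at chr6:29758459-29758487 on the plus strand of mm10. The capitals mark the tryptophan codon, at bases 29758472 to 29758474, whose counterpart in the SmoM2 allele encodes leucine.
Smo codon changed in SmoM2: tgccatgagcaccTGGgtctggaccaagg

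The promoter windows of Ptch1 and Hhip are shown because these genes had the strongest correlation of levels across libraries described here. Each window is the 250 bases before the RefSeq start site in GRCm38.p6, on the minus strand, at chr13:63565736-63565985 for Ptch1 and chr8:80058009-80058258 for Hhip. Both strands were searched for the GLI consensus GACCACCCA and for its core CCACCC, which lies inside the consensus. Capitals mark the core.
Ptch1 window: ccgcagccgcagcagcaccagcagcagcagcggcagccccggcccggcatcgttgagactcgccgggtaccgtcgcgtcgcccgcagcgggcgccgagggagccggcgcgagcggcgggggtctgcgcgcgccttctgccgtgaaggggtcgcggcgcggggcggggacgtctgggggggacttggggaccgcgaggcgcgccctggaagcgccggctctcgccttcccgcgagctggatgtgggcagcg
Hhip window: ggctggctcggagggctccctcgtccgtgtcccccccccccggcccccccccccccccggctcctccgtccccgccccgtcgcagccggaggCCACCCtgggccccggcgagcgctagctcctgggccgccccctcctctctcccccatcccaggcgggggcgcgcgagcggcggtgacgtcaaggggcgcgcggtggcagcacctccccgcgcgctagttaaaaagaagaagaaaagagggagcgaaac
The consensus was in none of the 5 windows found (Ptch1, Hhip, Cdon, Gas1 and Smo). The core was in the Hhip window, starting 158 bases before the start site, and in the Smo window, starting 162 bases before it. Of 32851 mouse windows of this kind, 0.225% held the consensus and 28.1% the core. A core match in 2 of the 5 is therefore a description only, and binding was not tested. The Ptch1 and Hhip windows were 78.4% and 76.0% GC. The Ptch1 window lies 7863 bases and the Cdon window 30948 bases from the outermost GENCODE start of its gene, so neither covers that start.

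The libraries held 91.6 to 111.6 M units of deposited count. The low values peak at multiples of about 4 units, which corresponds to 22.9 to 27.9 M fragments per library. Each group held 2 male and 2 female libraries, by sex read from the counts of Xist against those of Y-linked genes. The female libraries were SmoM2 3, SmoM2 4, control 2 and control 4. On a principal component analysis of the 500 most variable genes, the libraries SmoM2 3 and control 4 stood apart, at 31.5 and 39.1 on the first component (21.6% of the variance), against -24.4 to 4.08 for the other 6. On the second component (18.8% of the variance), control 1 and SmoM2 1 lay at -30.4 and -28.6, against -7.35 to 33.1 for the rest. The libraries said below to stand apart are SmoM2 3 and control 4 only. Summed epithelial markers were 769.9 CPM (counts per 1e6 counts of the library) in SmoM2 3 and 1272 CPM in control 4, against 196.5 to 368.7 CPM in the other 6. Summed fibroblast markers were 22910 and 20382 CPM in this pair, against 25764 to 34628 CPM. Neither list moved as a whole. Of 10 fibroblast markers, 6 were lower in both libraries of the pair than in all others, and 2, Tcf21 and Inmt, were higher in both. Of 8 epithelial markers, 3 were higher in both and 1, Scgb1a1, was lower in both. Other lists shifted too: of 8 endothelial markers, 4 were higher in both and 0 lower in both. Of 7 cartilage markers, 3 were lower in both and 0 higher in both. Fibroblast markers were the most abundant of the 8 cell type lists in all libraries, as the label of lung stroma would have it, and no marker of any list was at 0 in all libraries. Summed mesothelial markers were 89.8 to 203.2 CPM in SmoM2 libraries and 258.8 to 449.6 CPM in control libraries. The part of these cell types in the results below was not tested.

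None of the 6 genes differed between the SmoM2 and control libraries beyond the spread between mice. Of the 6, 0 were called at an adjusted p under 0.05 by edgeR's quasi-likelihood test, against 0% of all 20162 genes tested. At an unadjusted p under 0.05 the count was again 0 of 6, against 3.75% of all genes, and DESeq2 called 0 of the 6, against 0.285% of its 24185 genes. For 0 of the 6 genes did the SmoM2 and control libraries separate without overlap, against 2.44% of all genes. The log2 fold changes of SmoM2 over control were above 0 for 3 genes and below 0 for 3, with a median of 0.03, and the median of all genes was -0.00. Since the RNA came from sorted cells in bulk, fewer cells that express a gene and less RNA per cell cannot be told apart.

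**Figure D1:**
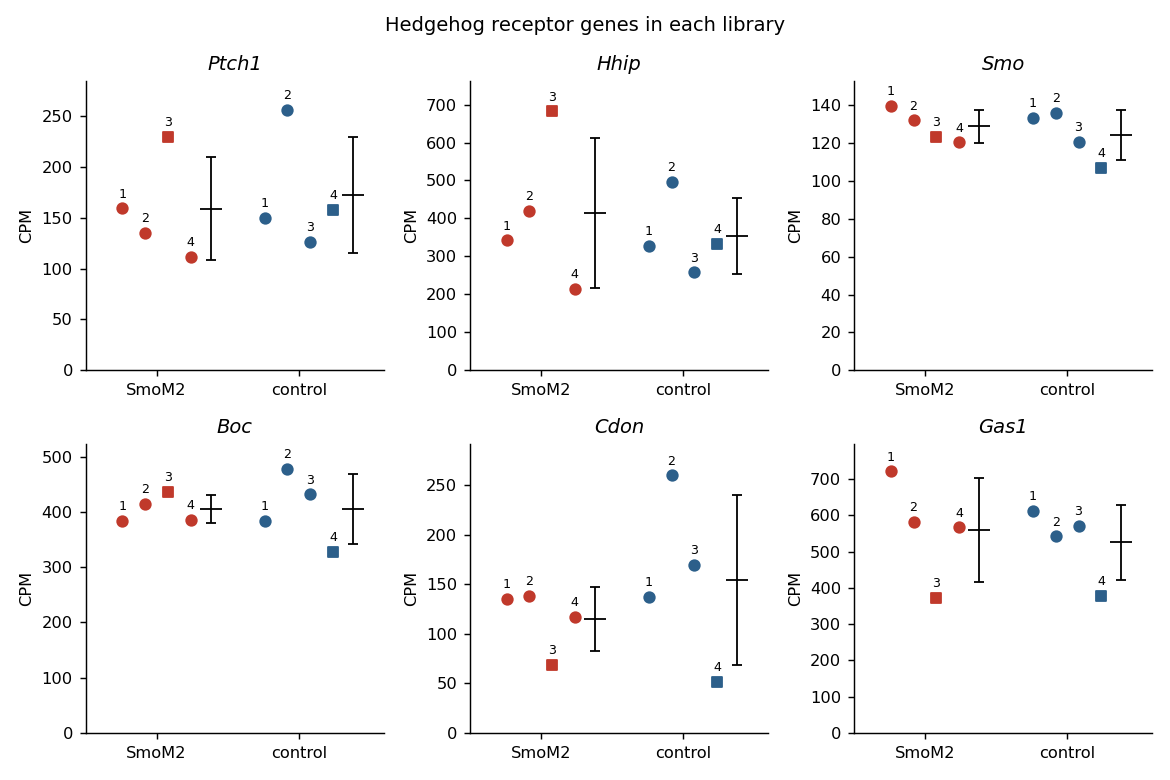
CPM of each of the 6 genes in every library, with SmoM2 libraries left of control libraries, points for libraries and bars for the mean and SD of each group (n = 4 each). The points of the 2 groups overlap in every panel, and Cdon, Hhip and Ptch1 spread more than Boc and Smo.

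Smo, the transducer that carries the activating mutation in the SmoM2 allele, is at chr6:29735503-29761365 on the plus strand (ENSMUSG00000001761). It had 139.9, 132.1, 123.6 and 120.4 CPM in SmoM2 libraries 1 to 4, against 133.3, 136.1, 120.6 and 107.1 CPM in control libraries 1 to 4. The libraries of both groups were interleaved, and the highest was only 1.31 times the lowest. The log2 fold change was 0.05 (SE 0.10, 95% interval -0.17 to 0.28, edgeR adjusted p = 0.9999). Total Smo transcript therefore did not separate mice with the extra allele from those without it, and the deposited values do not say how much of it was SmoM2. A processed pseudogene in a Smo intron, Gm13717, held 0.753% as many units as Smo and shares no exon base with it.

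Ptch1, the receptor that holds Smoothened off and a target of the pathway, is at chr13:63508328-63573598 on the minus strand (ENSMUSG00000021466). Its levels were 159.3, 135.4, 229.4 and 111.7 CPM in SmoM2 libraries 1 to 4 and 149.6, 256.2, 126.1 and 158.2 CPM in control libraries 1 to 4. The highest library was a control and the lowest a SmoM2 library. SmoM2 over control came to a log2 fold change of -0.12 (SE 0.27, 95% interval -0.74 to 0.51, edgeR adjusted p = 0.9999). Without SmoM2 3 and control 4, the pair of libraries that stood apart, it was -0.39. Leaving out control 2 alone gave 0.13 and SmoM2 4 alone 0.02, so the sign rested on single libraries.

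Hhip, the decoy receptor that binds ligand without passing on a signal, is at chr8:79965851-80058006 on the minus strand (ENSMUSG00000064325). It had 342.3, 419.0, 682.2 and 213.8 CPM in SmoM2 libraries 1 to 4, against 327.2, 495.1, 257.6 and 333.2 CPM in control libraries 1 to 4. The SmoM2 libraries held both the highest and the lowest value. The fit gave Hhip a log2 fold change of 0.23 (SE 0.34, 95% interval -0.55 to 1.01, edgeR adjusted p = 0.9999). It was -0.12 without SmoM2 3 and -0.15 without both libraries that stood apart. Hhip shares 175 exon bases with the small RNA gene Gm27820 on the other strand, which had 0 units.

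Cdon, a co-receptor of the immunoglobulin superfamily, is at chr9:35421128-35507652 on the plus strand (ENSMUSG00000038119). Its levels were 135.3, 138.1, 68.9 and 117.2 CPM in SmoM2 libraries 1 to 4 and 137.0, 259.7, 169.4 and 51.8 CPM in control libraries 1 to 4. The highest and the lowest library were both controls, 5.01-fold apart, and the lowest of each group was the library that stood apart on the first component. The log2 fold change was -0.43 (SE 0.43, 95% interval -1.41 to 0.56, edgeR adjusted p = 0.9999), the largest in size of the 6. It was -0.54 without both libraries that stood apart, -0.06 without control 2 and -0.72 without control 4, and it was not called in any of these fits.

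Gas1, a co-receptor anchored to the membrane by a lipid, is at chr13:60174405-60177365 on the minus strand (ENSMUSG00000052957). It had 721.2, 581.5, 372.3 and 567.1 CPM in SmoM2 libraries 1 to 4, against 611.3, 542.0, 570.7 and 378.0 CPM in control libraries 1 to 4. The lowest library of each group was again the one that stood apart, and the other 6 lay between 542.0 and 721.2 CPM. The fitted difference was a log2 fold change of 0.09 (SE 0.22, 95% interval -0.40 to 0.59, edgeR adjusted p = 0.9999), and 0.12 without that pair. The library kit is not stated to keep strand, and Gas1 shares 589 of its 2961 exon bases with the noncoding gene Gm48488 on the other strand. Reads of the pair cannot be told apart there. Gm48488 was not among the genes counted, so its level is unknown. The levels and shares of Gas1 given below carry this limit.

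Boc, the co-receptor most similar to Cdon, is at chr16:44485049-44558897 on the minus strand (ENSMUSG00000022687). It had 383.9, 414.1, 436.7 and 386.0 CPM in SmoM2 libraries 1 to 4 and 384.3, 477.1, 431.6 and 327.9 CPM in control libraries 1 to 4. The SmoM2 values lay wholly within the control range. The log2 fold change was -0.00 (SE 0.13, 95% interval -0.29 to 0.29, edgeR adjusted p = 0.9999), and -0.13 without the libraries that stood apart.

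Cdon and Gas1 were the genes of the 6 that were lower in both SmoM2 3 and control 4 than in all other libraries, and 0 of the 6 were higher in both. Among all genes tested, 10.9% were lower in both and 12.4% higher in both. Of 49 other pathway genes, 7 were lower in both, among them Gli2, which drives the Cre in these mice, and 5 were higher in both. The ligand gene Shh was among the 5, but near the floor, at 0.24 CPM in SmoM2 3 and 0.44 CPM in control 4. Control 2 was close, at 0.21 CPM. The 2 libraries come from different groups, and both are the libraries with the highest epithelial sums given above. Markers of the fibroblast, endothelial and cartilage lists also differed in them, as given above. Whether cell composition set the levels of Cdon and Gas1 was not tested.

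Compared per kilobase of exon, the co-receptors Gas1 and Boc had the highest levels of the 6 genes and the receptor Ptch1 the lowest mean. Gas1 averaged 183.4 ± 39.5 CPM per kb, Boc 91.0 ± 10.1 and Hhip 42.3 ± 16.4 CPM per kb over the 8 libraries (SD). Smo averaged 22.5 ± 1.91, Cdon 17.5 ± 8.25 and Ptch1 11.7 ± 3.58 CPM per kb. The level of Gas1 exceeded that of Boc in 8 of 8 libraries (mean log2 difference 0.99 ± 0.35, SD; exact two-sided sign-flip test, p = 0.0078, adjusted over 5 neighbouring pairs 0.013). The steps between Boc and Hhip (1.19 ± 0.48) and between Hhip and Smo (0.83 ± 0.51) held in 8 of 8 libraries with the same exact p, which is the smallest that 8 libraries can give. Smo exceeded Cdon in 6 of 8 libraries (0.51 ± 0.64, exact p = 0.0781, adjusted 0.0977) and Cdon exceeded Ptch1 in 6 of 8 (0.48 ± 0.81, exact p = 0.125), so these neighbours did not differ beyond their spread. Ptch1 has 14.185 kb of summed exons, of which its longest transcript covers 10383 bases. With the longest transcript as the length, the order of the 6 means was the same, but not every step held by library. Smo has 5621 bases of summed exons and 3779 in its longest transcript. By the longest transcript Hhip lay below Smo in SmoM2 4 and control 3, so that step held in 8 of 8 libraries only by summed exons.

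**Figure D2:**
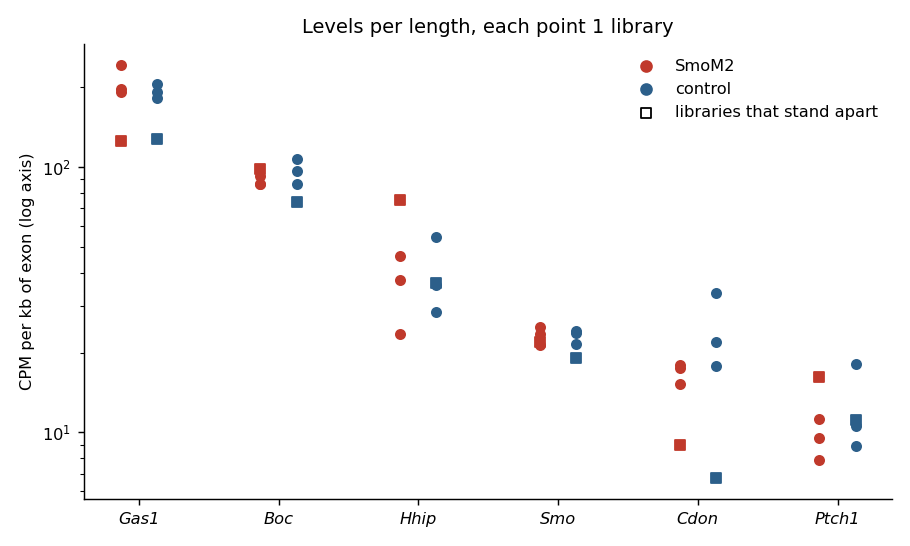
Level of each of the 6 genes per kilobase of summed exons (CPM per kb, log axis), one point per library, SmoM2 libraries left of control libraries. Gas1 lies at the top with a mean of 183.4 CPM per kb and Ptch1 at the bottom with 11.7, and the points of Cdon overlap those of Smo and those of Ptch1.

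Gas1 held the largest share of the co-receptor pool in both groups. Per kilobase, it held 63.3% of the summed co-receptor level in SmoM2 libraries, between 54.0% and 70.1%, and 61.5% in control libraries, between 56.5% and 66.5%. Boc held 31.7% in SmoM2 libraries, between 24.8% and 42.1%, and 31.9% in control libraries, between 27.8% and 35.4%. Cdon held 4.97% in SmoM2 libraries, between 3.84% and 5.82%, and 6.60% in control libraries, between 3.23% and 10.4%. The ranges of the groups overlapped for all 3 shares, with Boc's wider in SmoM2 and Cdon's wider in control libraries. The level of the restraining receptors Ptch1 and Hhip together, over that of the 3 co-receptors, was 0.205 ± 0.128 in SmoM2 and 0.181 ± 0.055 in control libraries (SD, n = 4 each). In each group the highest ratio was in the library that stood apart. Hhip over Ptch1, per kilobase, was 3.96 ± 0.92 in SmoM2 libraries, between 2.99 and 4.84, and 3.23 ± 0.17 in control libraries, between 3.02 and 3.42.

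The 6 genes differed in how far they varied between mice of one group. Cdon had a within-group SD of 0.77 on the log2 CPM scale, at the 98.0th percentile of the 500 genes nearest to it in mean level. Hhip had 0.56 (94.4th percentile) and Ptch1 0.44 (90.6th). Gas1 had 0.36 (78.6th percentile), Boc 0.18 (43.2nd) and Smo 0.13 (36.6th). The inducible receptors and Cdon were thus among the more variable genes at their level, and Smo and Boc were not. Without SmoM2 4, 1 of the 6 genes, in place of 3, lay at or above the 90th percentile. The number of fragments behind these values was between 1534 and 6514 per library for Cdon, which held the lowest single value of the 6 genes. It was between 10037 and 18537 for Gas1, and counting error is small beside these spreads.

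**Figure D3:**
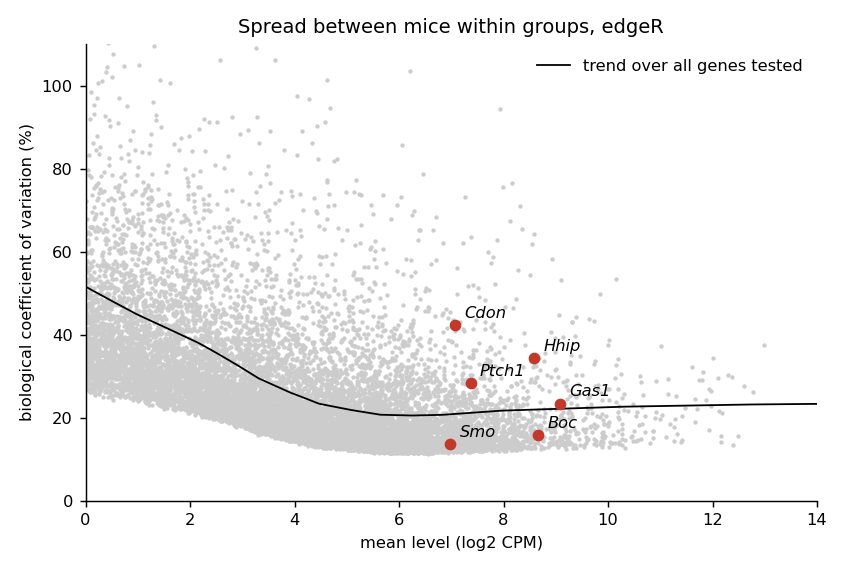
Biological coefficient of variation within groups from edgeR (%, vertical axis) against mean level (log2 CPM) for the tested genes in grey, with the trend over all genes as a line and the 6 genes in red. Cdon (42.4%), Hhip (34.4%) and Ptch1 (28.3%) lie above the trend, and Boc (15.8%) and Smo (13.7%) lie below it.

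Ptch1 and Hhip tended to be high in the same mice. Across the 8 libraries the correlation of their log2 CPM was r = 0.86 (exact permutation p = 0.00667, adjusted over 21 relations 0.119) and rho = 0.83 (exact permutation p = 0.015, adjusted 0.229), so it did not pass the correction over all libraries as measured. Without SmoM2 3 and control 2, the libraries farthest from the median of Ptch1, r was 0.71, and without both libraries that stood apart it was 0.82. After centring by group r was 0.91, and after centring by sex it was 0.86. Centred values were permuted over all 8 libraries as if no mean had been removed, so a p after centring is approximate and may be too small. By that p the group-centred r lay just under the threshold (permutation, adjusted p = 0.0448), which does not settle whether it passes. Over all alternatives run, the adjusted permutation p of Ptch1 with Hhip lay between 0.0448, the group-centred value, and 0.313. Each sex had only 4 libraries, too few for a value of its own. SmoM2 3 was the highest SmoM2 library and control 2 the highest control library for both genes, and SmoM2 4 was the lowest of all 8 for both. Control 2 was also the highest control library for Boc, Cdon, Smo and Gli1, but not for Gas1.

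Gli1, the transcription factor most used as a readout of the pathway, followed Ptch1 and Hhip less closely over the 8 libraries. It had 122.0, 116.5, 89.7 and 77.0 CPM in SmoM2 libraries 1 to 4 and 82.8, 136.5, 115.3 and 62.7 CPM in control libraries 1 to 4, with a log2 fold change of 0.03 (SE 0.25, edgeR adjusted p = 0.9999). Its correlation was r = 0.30 with Ptch1 (exact permutation p = 0.466) and r = 0.27 with Hhip. With Cdon it was r = 0.81 (exact permutation p = 0.011, adjusted 0.119; rho = 0.74). That r was 0.45 without control 2 and control 4, the libraries farthest from the Gli1 median, whose removal also narrows the range of Gli1, and it lay between 0.66 and 0.86 leaving out each library in turn. After centring by group it was 0.85 (permutation, adjusted p = 0.0448, approximate for the reason given for Ptch1 and Hhip). Over all alternatives run its adjusted permutation p lay between 0.0396, without SmoM2 3, and 0.498, without control 4. Without both libraries that stood apart, r of Gli1 was 0.65 with Ptch1, 0.71 with Hhip and 0.70 with Cdon in the remaining 6. Without such centring, none of the 21 relations passed at an adjusted p under 0.05 over the 8 libraries.

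**Figure D4:**
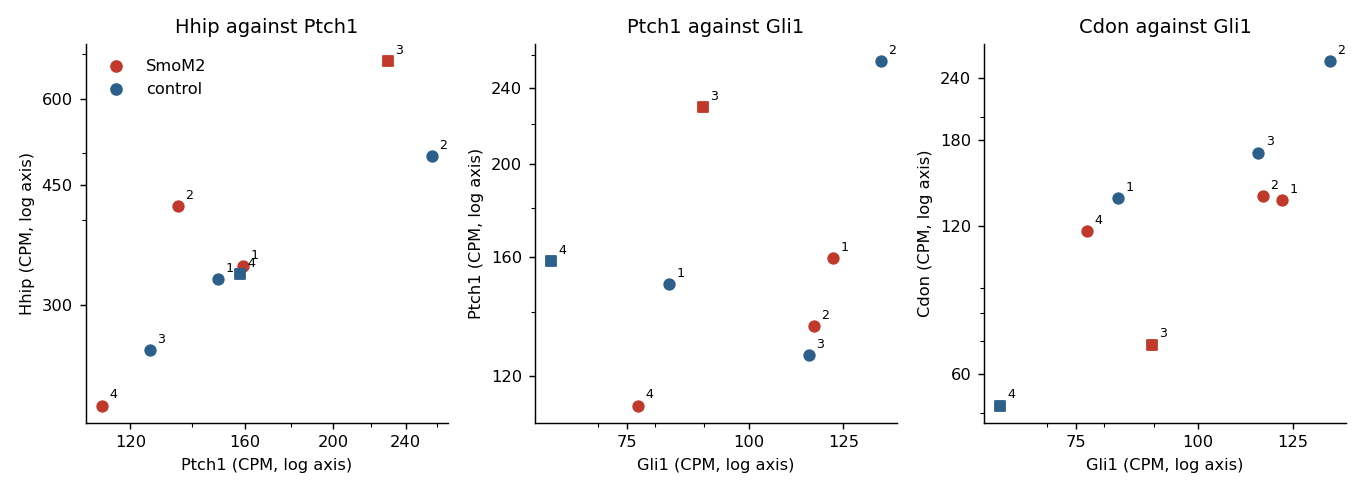
CPM on log axes of Hhip against Ptch1, Ptch1 against Gli1 and Cdon against Gli1, one numbered point per library, SmoM2 in red and control in blue, squares for the libraries that stood apart. Hhip rises along Ptch1 (r = 0.86), Ptch1 and Gli1 are more scattered (r = 0.30), and Cdon against Gli1 (r = 0.81) has control 2 and control 4 at its ends.

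For the 3 genes whose levels ranged at least 1 log2 unit across libraries, the most similar profiles among 10840 candidate genes were sought by the mean absolute difference of centred log2 CPM over the 8 libraries. Nearest to Ptch1 were Klhl23 (0.15), Pex3 (0.15) and Fgfr2 (0.16). Nearest to Hhip were Ngb (0.19), Cdh4 (0.20) and Cbx7 (0.20). Nearest to Cdon were Prrx2 (0.12), Thsd4 (0.18) and Fscn1 (0.18).

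Among the other genes of the pathway, 0 of 49 tested were called by edgeR, against 0% of all genes. DESeq2 called 1, against 0.285% of all genes in its test. Of the 49, 18 had log2 fold changes above 0 and 31 below 0, with a median of -0.03. By edgeR, 3 had an unadjusted p under 0.05, against 3.75% of all genes. Gpc5, a glypican, had 0 units in all libraries and was not tested. The 3 ligand genes were barely detected in these stromal cells, with Shh at 7 to 52 units, Ihh at 4 to 45 and Dhh at 15 to 74 units per library, where about 4 units make 1 fragment. All 3 ligand genes had log2 fold changes below 0, with a median of -0.59, and Ihh had an unadjusted edgeR p of 0.0475.

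The transcription factors Gli2 and Gli3 averaged 42.7 ± 3.54 and 41.0 ± 7.10 CPM in SmoM2 libraries, and 43.9 ± 6.0 and 34.2 ± 7.38 CPM in control libraries. Sufu, which holds GLI proteins in check, averaged 38.9 ± 4.37 CPM in SmoM2 and 42.3 ± 4.84 CPM in control libraries (SD, n = 4 each). Among 26 genes of signal transduction, 14 had fold changes above 0 and 12 below 0. Among 13 target genes outside the receptors, 3 lay above 0 and 10 below, with a median of -0.15, none of them called.

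The SmoM2 and control libraries did not overlap for 1 of the 49 other pathway genes, against 2.44% of all genes tested. This was Csnk1g1, a casein kinase 1 gamma gene whose product phosphorylates Smoothened in flies. It averaged 21.8 ± 4.32 CPM in SmoM2 libraries and 6.57 ± 1.66 CPM in control libraries (SD, n = 4 each). Its log2 fold change was 1.73 (SE 0.23). It missed the threshold by edgeR (adjusted p = 0.146) and passed it by DESeq2 (adjusted p = 2.73e-09).

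**Figure D5:**
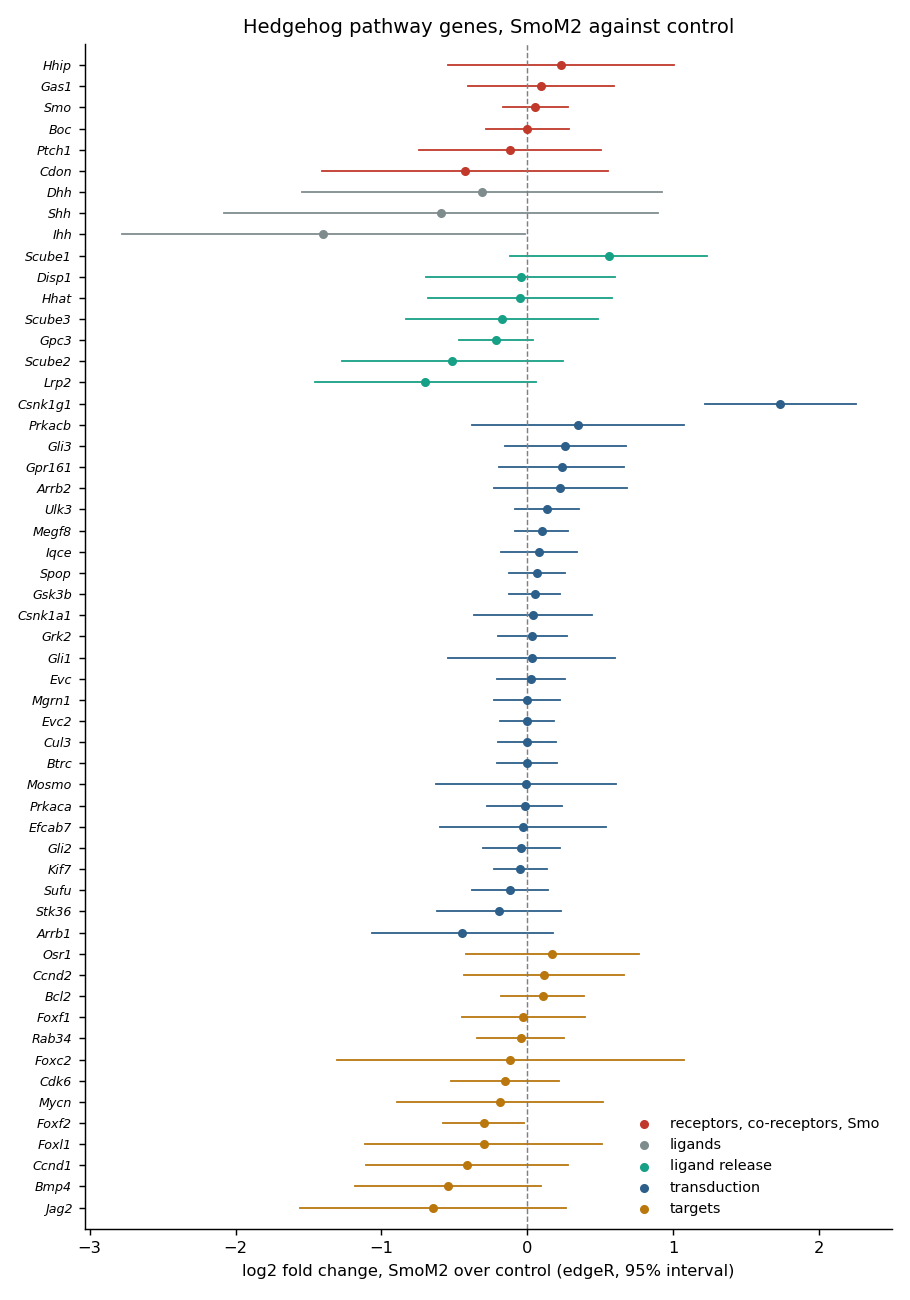
Log2 fold change of SmoM2 over control with 95% intervals from edgeR for the 6 genes and the other pathway genes, grouped by role. The intervals of all 6 receptors, co-receptors and Smo cross 0, and Csnk1g1, at 1.73, stands apart from the others.

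The authors' deposited table gave the same order of size for the 6 genes. Its log2 fold changes of SmoM2 over control were 0.06 for Smo, -0.11 for Ptch1, 0.23 for Hhip, -0.42 for Cdon, 0.10 for Gas1 and 0.01 for Boc. In the authors' deposited table the adjusted p was 1 for each of the 6, and 15 genes in all had an adjusted p under 0.05. The group differences by sex were also examined in 1 model with an interaction term, and edgeR's adjusted p for the interaction was 0.99996 for each of the 6.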

How the data were processed

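The authors deposited a table of estimated counts per gene for 8 libraries, as whole numbers, and these were not rounded further. Per the submitters' processing notes, reads were handled with HISAT, StringTie, FastQC and DESeq on mm10, with no versions or roles given. Low values peaked at 4 and 5, then 8 and 9 units, so 1 fragment was taken as about 4 units. Per the file headers, the authors' comparison table holds their normalised mean signal per group, the fold ratio, the same on a log2 scale, and raw and adjusted p-values. Size factors from medians of ratios, applied to the count table, returned those group means to a relative difference of at most 3.81e-09, which set the direction as SmoM2 over control.

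Counts were tested with edgeR 4.0.16 (R 4.3.3): TMM factors, filterByExpr, robust quasi-likelihood fit with group as the sole term, Benjamini-Hochberg adjustment over 20162 genes. CPM used TMM library sizes. SciPy 1.17.1 gave the exact tests, and DESeq2 1.42.0 and limma 3.58.1 served as alternatives. The fit was tested on simulated data. The reference gave symbols for 99.3% of identifiers, and the authors' table supplied 145 more. Coordinates are from GENCODE M21 (mm10) and promoters from RefSeq (GRCm38.p6), where 5 of the 6 genes matched and Boc did not. Column numbers are not tied to animals, and each library goes by its group and that number. The titles name 8 different animals, and the spread tested is the one between animals. Each pair of libraries differed beyond sampling noise (chi-square over degrees of freedom 25.4 to 115.7).

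The 6 genes, the pathway list and the cell type lists were chosen with earlier results of these data known. Named genes were the 6, Gli1, Gli2, Gli3, Sufu, the 3 ligands, list genes called over all genes, and the 3 nearest profiles of genes ranging at least 1 log2 unit, with a mean of at least 5 CPM. Csnk1g1 and Gpc5 were named after their values were seen. One gene of the pathway list is not reported here and is left out of that list's counts.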

Additional observations from a re-analysis of the deposited data

How the results depend on the processing

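No paired analysis was possible because the columns carry no number that the labels tie to an animal and the groups share no animal numbers. None of the 6 genes was called under any of the 18 alternatives run. The order of mean levels per length was the same under the 11 run for it. DESeq2 called 69 genes in all, and leaving out each library in turn gave 0 to 1, with 1 without SmoM2 4. DESeq2 called 1 other pathway gene, Csnk1g1. Correlations past the correction numbered 2 after centring by group (Ptch1 with Hhip, Gli1 with Cdon), by a p that is only approximate after centring. They numbered 0 to 2 leaving out each library, with 2 without SmoM2 3. Genes of the 6 at or above the 90th percentile of spread numbered 1 to 3 leaving out each library. The log2 fold change of Boc, near 0, was 0.0059 with DESeq2, 0.0095 with limma-voom, 0.0045 with median-of-ratios scaling, 0.00053 with a minimum of 1 CPM, 0.0010 with counts divided by 5 and 0.00077 with counts divided by 4. Leaving out each library gave -0.089 to 0.083 for Boc, -0.35 to 0.13 for Ptch1, -0.12 to 0.45 for Hhip, -0.055 to 0.25 for Gas1, -0.011 to 0.10 for Smo and -0.14 to 0.22 for Gli1, and r of -0.071 to 0.42 for Gli1 with Ptch1. Without both libraries that stood apart, an alternative chosen after seeing the data, log2 fold changes were -0.15 for Hhip and -0.085 for Gli1, and r between Cdon and Gas1 was -0.46, against 0.72 over all 8 libraries (exact permutation p = 0.0462, adjusted 0.146), in which SmoM2 3 and control 4 were the lowest for both genes. The cause of these shifts was not tested. With 4 mice a group, the precision differed by gene, and the 95% interval of the log2 fold change ran between -0.17 and 0.28 for Smo, the narrowest of the 6, and between -1.41 and 0.56 for Cdon, the widest.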
